A study of Mus musculus with 6 samples.

Results

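Cells mend broken and mismatched DNA by several routes, and 39 genes of these routes were followed here in embryonic stem cells and in the somatic cells of the fetal testis. The set was taken by gene symbol from homologous recombination (16 genes), the Fanconi pathway (9), mismatch repair (4), non-homologous end joining (6) and the kinases that signal damage (4). A probe belonged to a gene when its transcript identifier maps to that gene in RefSeq. This gave 50 probes for 38 of the 39 genes, since no probe mapped to Rad51c. Of the 38, 37 were tested among 19675 genes of the array. These 19675 were 14204 named genes and 5471 identifiers with no matching symbol, and shares of all genes tested cover both. Chek1 was not tested because none of the 6 arrays showed its probe well above background, as the scanner files mark it.

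The soma group held 3 samples of male gonadal somatic cells at E13.5, from a cross labelled MCH x C57BL6/J with the transgene Oct5<delta>PE-GFP Tg. The ESC group held 3 samples of the male line VR15, an embryonic stem cell line with the transgene Vasa::RFP Tg, and so stands for 1 line. Each sample had its own one-colour array, started from 100 ng of total RNA. How the somatic cells were separated from the germ cells, and whether embryos were pooled, is not given in the sources used here. Soma is a mixture, and in such bulk samples fewer cells of a type and less RNA per cell cannot be told apart.

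In homologous recombination the ends of a break are first cut back, the BRCA proteins then load a recombinase on the exposed strand, and strand exchange copies the missing sequence from the sister chromatid. The Fanconi proteins detect crosslinks between the strands and open them for that repair, mismatch repair removes errors of replication, and end joining rejoins breaks without a template. Recombination and mismatch repair serve cells that replicate their DNA, and embryonic stem cells are known for fast cycles with a large share of cells in S phase, when a sister chromatid is at hand.

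Most of the repair genes were higher in ESC. Of the 37 tested, 32 rose in ESC, 1 fell and 4 did not pass limma's test at an adjusted p of 0.05, while of all genes tested 85.0% passed, 46.6% being higher and 38.3% lower in ESC. At least 2-fold, 19 repair genes rose, Brca1 with a soma level mostly below background among them, and none fell, against 24.2% and 23.2% of all genes. The median log2 difference (ESC minus soma) was 1.02 over the repair genes and 0.14 over all genes. Among genes well above background on all 6 arrays 49.7% were higher in ESC, against 31 of the 36 repair genes that met that condition. The largest rises were those of Xrcc5 (5.05-fold), Fancd2 (5.03-fold), Msh6 (4.96-fold) and Fanci (4.69-fold). Brca1 came next at 4.60-fold, but its soma level was poorly measured. Rbbp8 was the gene that fell, and Nbn, Brip1, Xrcc4 and Atm did not pass.

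The 3 arrays of a group lay close together for nearly all of these genes. The SD within a group had a median of 0.05 in soma and 0.06 in ESC on the log2 scale, with the highest values for Brca1 in soma (0.98) and Atm in ESC (0.34). All 3 ESC arrays were above all 3 soma arrays for 32 genes and below them for 2, where 47.7% and 39.5% of all genes tested did so. The 2 below were Rbbp8 and Atm.

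**Figure D1:**
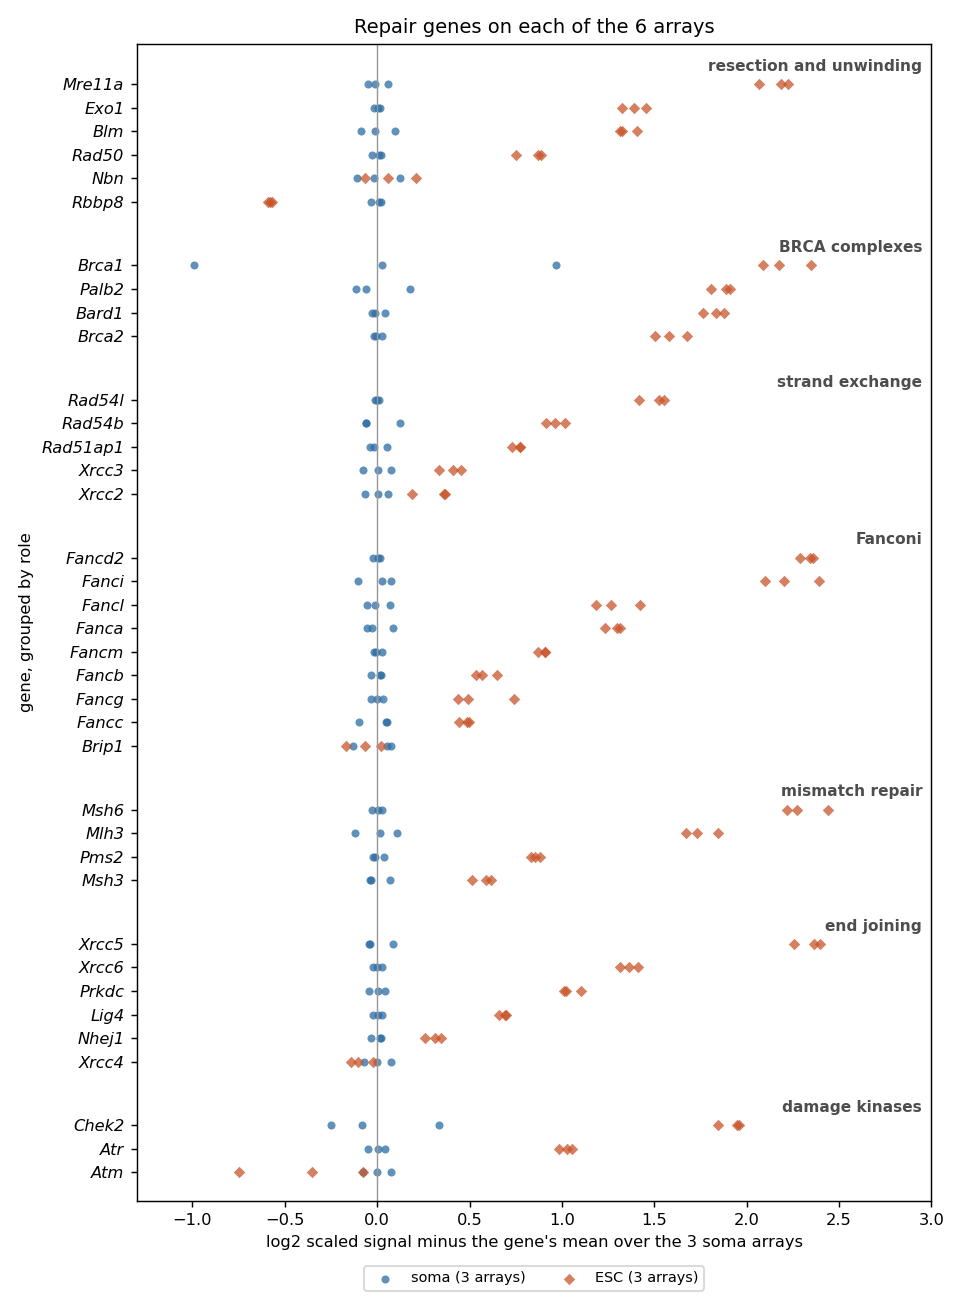
Scaled log2 signal of the 37 tested repair genes on each of the 6 arrays, minus the gene's mean over the 3 soma arrays (horizontal axis), with genes in rows grouped by role. Circles are soma arrays and diamonds ESC arrays. The ESC arrays lie to the right of the soma arrays for 32 genes and to the left for Rbbp8 and Atm, and the soma circles of Brca1 are the most spread.

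Several facts of the arrays bear on all values below. The 75th percentile of the signal, by which each array was scaled, was 1323 ± 72.6 (SD, n = 3) in soma and 983 ± 29.3 (SD, n = 3) in ESC (two-sided exact permutation p = 0.1, the smallest possible with 3 arrays against 3). Other scalings gave a median difference over all genes of 0.02 under quantile normalization, which moves genes by unequal amounts, 0.34 under scaling to the array median and -0.08 under spike-in scaling. Of the 2 slides, 1 held soma 1 and 2 and the other held soma 3 with the ESC arrays. Each scan held a single group, and the effects of scan and group therefore cannot be told apart. By marker genes, all 10 pluripotency genes were higher in ESC, and all 8 Sertoli, 4 Leydig and 5 interstitial genes tested were lower. The 4 erythroid and 3 leukocyte genes tested were also lower in ESC, and of 7 germ cell genes 3 were higher and 2 lower. Of 4 endothelial genes Cdh5 and Emcn were lower, Pecam1 was higher (0.94) and Kdr did not pass on its brightest probe (0.26). The other kept probe of Kdr was lower at -4.09. The summed level of the germ cell genes, in units of the array's 75th percentile, was 3.89 to 7.39 in soma and 12.6 to 13.4 in ESC. Of these genes Sycp3 (5.40), Mael (1.42) and Dnd1 (0.86) were higher in ESC, and Dazl (-2.06) and Nanos2 (-6.32) lower. The erythroid genes had the largest sum of the marker groups in soma, 600.1 to 643.3, against 0.109 to 0.131 in ESC. The interstitial genes summed to 73.2 to 81.4 in soma. The part of these other cells in the results was not tested.

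Most of the cell cycle genes examined moved in the same direction as the repair genes. On the brightest probe of each gene, all 14 replication genes examined were higher in ESC, among them the Mcm2 to Mcm7 helicase subunits and Pcna. Their median difference was 1.02, with a range of 0.47 to 1.72. Of 10 genes of mitosis 9 were higher and Mki67, a proliferation marker, was lower at -0.35 (-0.15 and not passed under scaling to the array median, -0.89 under quantile normalization), with a median of 1.10. The median of the repair genes was likewise 1.02. Medians of repair, replication and mitosis genes were 1.22, 1.22 and 1.30 under scaling to the array median. They were 0.80, 0.80 and 0.88 under spike-in scaling and 0.91, 0.97 and 1.06 under normexp background correction. Only under quantile normalization did the repair genes have the highest of these medians, at 0.94, 0.68 and 0.69. Cdc6, of the replication genes, rose by 0.99 on its brightest probe but stood at -1.10 on its other, so its direction was not settled. Cdk1, of the mitosis genes, rose by 0.54 on its brightest probe, while its other probes gave 0.10 and 0.12 and did not pass. The other probes of Ccnb1, Birc5 and Mki67 kept the direction of the brightest. The summed level of the replication genes was 152 to 157 in soma and 322 to 353 in ESC, again in units of the 75th percentile, and no gene of either list lay below background throughout a group. Their part in the repair genes' differences was not tested.

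**Figure D2:**
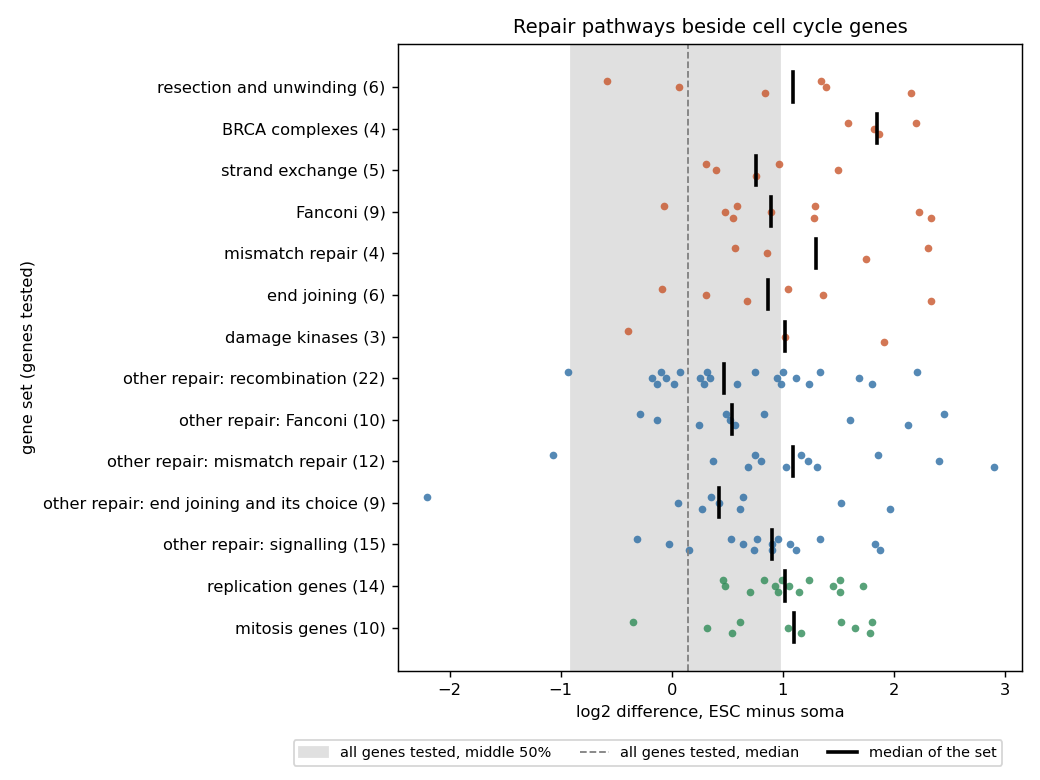
Log2 difference, ESC minus soma (horizontal axis), of each tested gene in the 7 role groups of the repair set (orange), in 5 groups of other repair genes (blue) and in replication and mitosis genes (green). Short bars are set medians, the dashed line is the median of all genes tested (0.14) and the grey band their middle 50% (-0.91 to 0.97). The BRCA group has the highest median of the orange groups, 1.85, and lies wholly above the strand exchange group.

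The promoters are shown here because the members moved together and the choice of genes did not use sequence. RefSeq promoters of the GRCm38.p6 assembly, 250 bases before to 50 after a start, were at hand for 31 of the 39 genes and were searched on both strands. E2F factors switch on genes at the entry into S phase, and their sites resemble the octamers TTTCGCGC, TTTGGCGC, TTTCCCGC and TTTGCCGC. At least 1 of these was found in 8 of the 31 genes (25.8%) and in 704 of 27025 genes with a promoter in the table (2.605%). The share was 17.5% in 57 other repair genes and 54.5% in 11 replication genes. The pentamer CCAAT, a core of NF-Y sites, was in 19 of 31 (61.3%) against 41.1% of all genes, 56.1% of the other repair genes and 90.9% of the replication genes, and the CHR-like hexamers TTTGAA or TTCGAA of late cell cycle genes were in 2 of 31 (6.45%) against 21.7% of all genes, 22.8% and 18.2%. Matches of different motifs may overlap. The octamers are rich in G and C, and the median G and C content was 59.7% over 35 promoters of the members and 52.7% over all. The 8 genes with an octamer were Bard1, Brca2, Chek2, Fancg, Msh3, Msh6, Xrcc6 and Rad51c. The measured ones differed by 0.55 (Fancg) to 2.31 (Msh6) between ESC and soma, and genes without an octamer, such as Fanci, Mre11a and Xrcc5, reached like values. A match of letters is not a binding site. In the following stretches, printed 5′ to 3′ on the gene's strand and lying before the start, the octamer is in capitals; in Chek2, Brca2 and Xrcc6 it reads on the opposite strand, and in Msh3 a second octamer overlaps the first on the opposite strand.
Bard1, chr1:71103129-71103222, minus strand: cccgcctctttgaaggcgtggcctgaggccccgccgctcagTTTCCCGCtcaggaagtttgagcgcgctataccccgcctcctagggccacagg
Brca2, chr5:150522408-150522505, plus strand: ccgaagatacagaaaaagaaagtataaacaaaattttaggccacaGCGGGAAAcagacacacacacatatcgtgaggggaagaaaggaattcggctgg
Msh3, chr13:92355153-92355250, minus strand: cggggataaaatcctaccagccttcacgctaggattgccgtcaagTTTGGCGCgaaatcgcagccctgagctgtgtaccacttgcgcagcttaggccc
Xrcc6, chr15:82016278-82016368, plus strand: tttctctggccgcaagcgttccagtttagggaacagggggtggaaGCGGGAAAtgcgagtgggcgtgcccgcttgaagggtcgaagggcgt
Chek2, chr5:110839786-110839883, plus strand: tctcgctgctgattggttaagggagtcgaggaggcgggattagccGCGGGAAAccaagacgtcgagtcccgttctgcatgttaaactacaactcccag

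Among the genes that cut back and unwind broken ends, 4 of 6 rose in ESC, Rbbp8 fell and Nbn did not pass. Mre11a encodes the nuclease of the MRN complex, which binds break ends. Its scaled log2 signal, the log2 signal minus that of the array's 75th percentile, read 0.997, 0.892 and 0.930 in soma and 3.16, 3.00 and 3.13 in ESC, a 4.46-fold rise (log2 difference 2.16 ± 0.06, SE, n = 3 per group, limma adjusted p 9.25e-07). No ESC value came near a soma value. The partners of Mre11a in that complex moved less. Rad50, its ATPase, rose by 0.84 ± 0.06 (SE, n = 3 per group), and another probe of it gave 1.35. Nbn, the subunit that recruits the kinase Atm, stood at -1.46, -1.36 and -1.22 in soma and at -1.13, -1.29 and -1.41 in ESC. Its groups overlapped (difference 0.07, 95% confidence interval -0.17 to 0.31), though under scaling to the array median it passed at 0.26.

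Exo1, an exonuclease of long-range resection that also serves mismatch repair, stood at 1.82, 1.81 and 1.79 in soma and at 3.26, 3.13 and 3.19 in ESC. Blm, the helicase lost in Bloom syndrome, stood at 0.45, 0.53 and 0.64 in soma and at 1.86, 1.86 and 1.95 in ESC. Both rose with no overlap, Exo1 2.62-fold and Blm 2.54-fold. Rbbp8 encodes CtIP, which starts resection together with the MRN complex. Its values were 1.63, 1.67 and 1.68 in soma and 1.07, 1.08 and 1.09 in ESC, so that every ESC array was below every soma array. Rbbp8 fell by 0.58 ± 0.04 on the log2 scale (SE, n = 3 per group, limma adjusted p 4.14e-05), and it was called lower under all 21 alternative settings.

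All 4 genes of the BRCA complexes rose, Brca1 with the limits given after the others. Bard1, the obligate partner of BRCA1 in a ubiquitin ligase, stood at 0.17, 0.22 and 0.15 in soma and at 2.06, 1.95 and 2.01 in ESC (3.54-fold). Palb2, whose protein bridges BRCA1 and BRCA2, stood at -2.59, -2.30 and -2.54 in soma and at -0.58, -0.57 and -0.67 in ESC (3.65-fold). Brca2, which loads the recombinase onto the resected strand, stood at 1.05, 1.02 and 1.01 in soma and at 2.70, 2.53 and 2.61 in ESC (3.00-fold). For each of the 3 the groups were far apart beside their spread, with SEs of 0.05 to 0.09. Their limma adjusted p ranged from 8.92e-07 for Bard1 to 5.34e-06 for Palb2.

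Brca1 itself was measured less well. Its probe was well above background on all 3 ESC arrays but on 1 of the 3 soma arrays, with values of -7.19, -5.23 and -6.17 in soma and -4.02, -4.11 and -3.85 in ESC. The groups did not overlap, and the difference of 2.20 had a wide 95% confidence interval of 1.02 to 3.39 (limma adjusted p 0.00555). It was 0.86 under normexp background correction, 1.71 without soma 1 and 2.69 without soma 2, and passed in each case. The other probes of Bard1 gave 0.75 and 2.17, and that of Palb2 gave 2.18.

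The genes that help strand exchange rose by smaller amounts, with 5 of 5 tested higher and 1 of them by at least 2-fold. Rad54l, a motor protein that moves the recombinase filament along DNA, stood at -0.81, -0.80 and -0.82 in soma and at 0.74, 0.60 and 0.71 in ESC (2.83-fold). Its relative Rad54b stood at -0.09, 0.09 and -0.09 in soma and at 0.98, 0.93 and 0.88 in ESC (1.95-fold). Rad51ap1, which stabilises the joined strands, stood at 1.56, 1.63 and 1.54 in soma and at 2.35, 2.31 and 2.35 in ESC (1.69-fold). In all 3 the lowest ESC array was above the highest soma array by more than the spread within either group.

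Xrcc2 and Xrcc3 encode paralogs of the recombinase that assist its filament. Xrcc3 stood at -0.41, -0.33 and -0.49 in soma and at 0.04, -0.07 and 0.00025 in ESC, a rise of 0.40 ± 0.06 (SE, n = 3 per group, limma adjusted p 0.00128). On its brighter probe Xrcc2 stood at -1.71, -1.65 and -1.78 in soma and at -1.35, -1.52 and -1.35 in ESC, a rise of 0.31. Neither passed under spike-in scaling, where they stood at 0.18 and 0.08. The probes of Xrcc2 gave different sizes. A dimmer one, well above background on 2 soma arrays and 3 ESC arrays, stood at -4.50, -4.37 and -4.57 in soma and at -1.77, -2.04 and -1.87 in ESC, a difference of 2.59. Both list the same transcript, and their sequences were not checked.

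Of the 9 Fanconi genes 8 rose in ESC and Brip1 did not pass. The pair that is ubiquitinated at a crosslink, the step that starts its repair, rose most. Fancd2 stood at -3.64, -3.61 and -3.60 in soma and at -1.27, -1.33 and -1.26 in ESC (5.03-fold, log2 difference 2.33 ± 0.05, SE, n = 3 per group, limma adjusted p 3.15e-07; 1.69 under normexp). Fanci stood at -0.13, -0.08 and -0.25 in soma and at 2.24, 1.95 and 2.05 in ESC (4.69-fold). Both genes were thus separated between the groups by many times their spread.

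The members from the core complex that carries out this ubiquitination rose less. Fanca, a scaffold of the core, stood at 0.66, 0.80 and 0.69 in soma and at 2.03, 1.95 and 2.01 in ESC (2.43-fold). Fancl, the ubiquitin ligase subunit, stood at 1.10, 1.23 and 1.15 in soma and at 2.58, 2.34 and 2.42 in ESC (2.45-fold), while its other probe gave 0.19 and did not pass. Fancm, which anchors the core on DNA, rose by 0.90, Fancb by 0.58 and Fancg by 0.55. These ESC values did not overlap with soma.

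Fancc went both ways by probe. The brighter probe, for transcript NM_007985, stood at -1.45, -1.60 and -1.45 in soma and at -1.0, -1.05 and -1.01 in ESC, a rise of 0.48 ± 0.06 (SE, n = 3 per group). The other, for transcript NM_001042673, stood at -2.37, -1.97 and -2.39 in soma and at -3.62, -3.45 and -3.84 in ESC, a difference of -1.39. Both differences were larger than the spread of the arrays, and the mean of the probes was -0.46. The direction of Fancc as a gene was therefore not settled. Brip1, a helicase that binds BRCA1, stood at -3.44, -3.42 and -3.63 in soma and at -3.48, -3.57 and -3.67 in ESC, with overlapping groups (difference -0.07, 95% confidence interval -0.28 to 0.13).

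All 4 genes of mismatch repair rose. Msh6, which recognises base mismatches, stood at 3.56, 3.52 and 3.58 in soma and at 5.99, 5.82 and 5.77 in ESC (4.96-fold, log2 difference 2.31 ± 0.07, SE, n = 3 per group, limma adjusted p 1.06e-06; 1.73 under quantile normalization). Msh3, which recognises larger loops and shares its partner with Msh6, rose by 0.57, and its other probes gave 0.49 and 0.83. Mlh3 stood at -2.47, -2.60 and -2.38 in soma and at -0.64, -0.81 and -0.75 in ESC (3.36-fold), and Pms2 at -0.36, -0.35 and -0.30 in soma and at 0.54, 0.49 and 0.51 in ESC (1.81-fold). Both encode nuclease partners in MutL complexes, and their groups did not overlap.

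Of the 6 genes of end joining 5 rose and Xrcc4 did not pass. Xrcc5 and Xrcc6 encode the subunits of Ku, the ring that slides onto a broken end. Xrcc5 stood at 1.06, 1.05 and 1.19 in soma and at 3.50, 3.35 and 3.46 in ESC (5.05-fold, log2 difference 2.34 ± 0.07, SE, n = 3 per group). Xrcc6 stood at 2.72, 2.74 and 2.77 in soma and at 4.16, 4.06 and 4.11 in ESC (2.57-fold). Xrcc5 thus had the largest difference of the whole set on a gene's brightest probe, with Fancd2 next to it within their SEs.

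The later steps of end joining moved less. Prkdc, the kinase that binds Ku, stood at -1.40, -1.31 and -1.34 in soma and at -0.25, -0.33 and -0.34 in ESC (2.06-fold). Lig4, the ligase that seals the break, rose by 0.68 ± 0.04 (SE, n = 3 per group). The differences of its partners were smaller still. Nhej1, which encodes XLF, stood at -0.20, -0.15 and -0.15 in soma and at 0.17, 0.09 and 0.15 in ESC, a rise of 0.31 that did not pass under spike-in scaling (0.08). Xrcc4 stood at -1.57, -1.64 and -1.50 in soma and at -1.59, -1.71 and -1.68 in ESC. Its groups overlapped (difference -0.09, 95% confidence interval -0.24 to 0.06), and under spike-in scaling it was called lower at -0.31.

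The 4 kinases differed among themselves. Atr, which answers stalled replication forks, stood at 1.93, 2.02 and 1.98 in soma and at 3.03, 3.01 and 2.96 in ESC (2.03-fold). Chek2, a kinase downstream of Atm, stood at -3.12, -2.54 and -2.95 in soma and at -0.92, -1.03 and -0.91 in ESC (3.77-fold). Both rose, with limma adjusted p of 6.13e-06 and 5.27e-05. Atm, which answers double-strand breaks, stood at -1.02, -0.94 and -1.09 in soma and at -1.10, -1.37 and -1.77 in ESC. Those groups did not overlap, but ESC 1 lay just under soma 3 and the difference of -0.39 missed the threshold (limma adjusted p 0.0743, 95% confidence interval -0.82 to 0.03). Without ESC 1 Atm was called lower at -0.55, and a dimmer probe of it stood at 0.21 and did not pass. Chek1, downstream of Atr, read -5.33, -5.38 and -5.24 in soma and -5.17, -5.23 and -5.12 in ESC. As none of these 6 readings stood well above background, they give no fold.

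**Figure D3:**
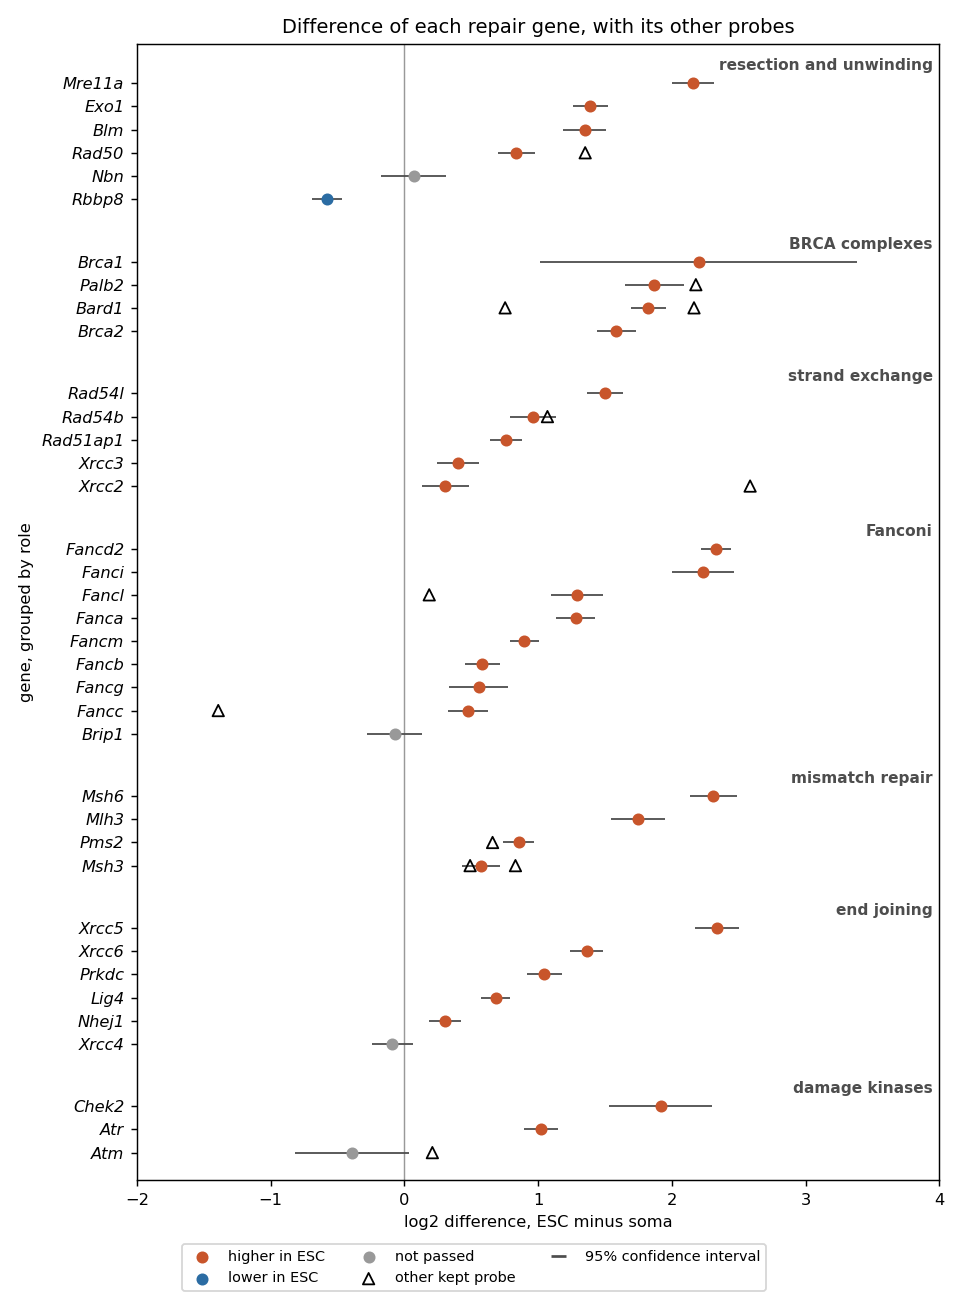
Log2 difference, ESC minus soma (horizontal axis), of the 37 tested repair genes from limma, with bars for the 95% confidence interval and n = 3 per group. Filled points are each gene's brightest kept probe, coloured by call, and open triangles are its other kept probes. The triangle of Xrcc2 lies at 2.59 against 0.31 for its brighter probe, and that of Fancc at -1.39 against 0.48.

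Side by side, the routes had medians of 1.35 for the 15 tested genes of homologous recombination, 0.90 for the 9 of the Fanconi pathway, 1.30 for the 4 of mismatch repair, 0.86 for the 6 of end joining and 1.02 for the 3 kinases. The routes overlapped widely, since end joining ran from -0.09 to 2.34 and homologous recombination from -0.58 to 2.20, and no difference between routes was tested. The order changed with the processing. Under normexp the medians were 0.91 for homologous recombination, 0.83 for Fanconi, 1.14 for mismatch repair, 0.80 for end joining and 0.97 for the kinases. With the dimmest kept probe of each gene the Fanconi median was 0.58. Against soma 3 alone, on the shared slide (n = 1), the medians of recombination and end joining were 1.25 and 0.86.

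Where a gene had several kept probes, the probes mostly gave 1 direction. This held for 7 of 10 genes, whose probes were all called higher: Bard1, Msh3, Palb2, Pms2, Rad50, Rad54b and Xrcc2. The others were Fancl, Fancc and Atm. Probe differences within a gene spanned 0.11 for Rad54b to 2.28 for Xrcc2.

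A further list of 70 repair genes, of which 68 were tested, gives the surroundings of these members. In it 53 genes rose in ESC (77.9%), 6 fell and 9 did not pass, against 46.6% of all genes tested higher and 38.3% lower. The median difference was 0.74 (0.48 under quantile normalization and 0.52 under spike-in scaling). The largest rise on a probe detected in both groups was that of Ube2t, the ubiquitin-conjugating enzyme of the Fanconi pathway, at 2.45 (5.48-fold), followed by Rfc5, a subunit of the clamp loader, at 2.40 (5.28-fold) and the nuclease and helicase gene Dna2 at 2.21 (4.61-fold). Msh4, a meiotic MutS gene, was not well above background on any soma array and was at least 1.89-fold higher in ESC. For this bound the ESC mean was set against the mean over soma arrays of the lowest signal well above background, or of the probe's value where that was higher (fitted difference 2.90, or 0.95 under normexp).

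Of the 6 that fell, Aptx moved furthest. It encodes aprataxin, which clears abortive ligation ends, and it fell by 2.21 ± 0.08 on the log2 scale (SE, n = 3 per group; -1.61 under normexp). Msh5, the meiotic partner of Msh4, fell by 1.07 (-0.495 under normexp), and Fbh1, a helicase that restrains the recombinase, fell by 0.94. Rnf8, a ubiquitin ligase at breaks, fell by 0.31 but did not pass under scaling to the array median (-0.11). By route, 15 of 22 further recombination genes were higher and 2 lower, and 8 of 10 Fanconi genes higher and 1 lower. Of 12 genes listed under mismatch repair 11 were higher and 1 lower. Besides Pms1, Msh4 and Msh5 these were genes that also serve replication (Lig1, Rfc1 to Rfc5 and Pold1 to Pold3), all higher. Of 9 end joining genes 6 were higher and 1 lower, and of 15 signalling genes 13 were higher and 1 lower. Over all genes tested 46.6% were higher and 38.3% lower.

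The directions were not all independent of the scaling. Of the 32 repair genes called higher, 27 kept that call and direction under each of 21 alternatives that gave a value, with Brca1 not measured on all 6 arrays and so without one under that filter. The exceptions were Xrcc2, Xrcc3 and Nhej1 under spike-in scaling, and Fancc and Fancl with another probe. With spike-in scaling 29 rose and 3 fell, the further 2 being Atm (-0.61) and Xrcc4. Under that scaling 7707 of the 19675 genes tested were higher in ESC and 8514 lower.

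**Figure D4:**
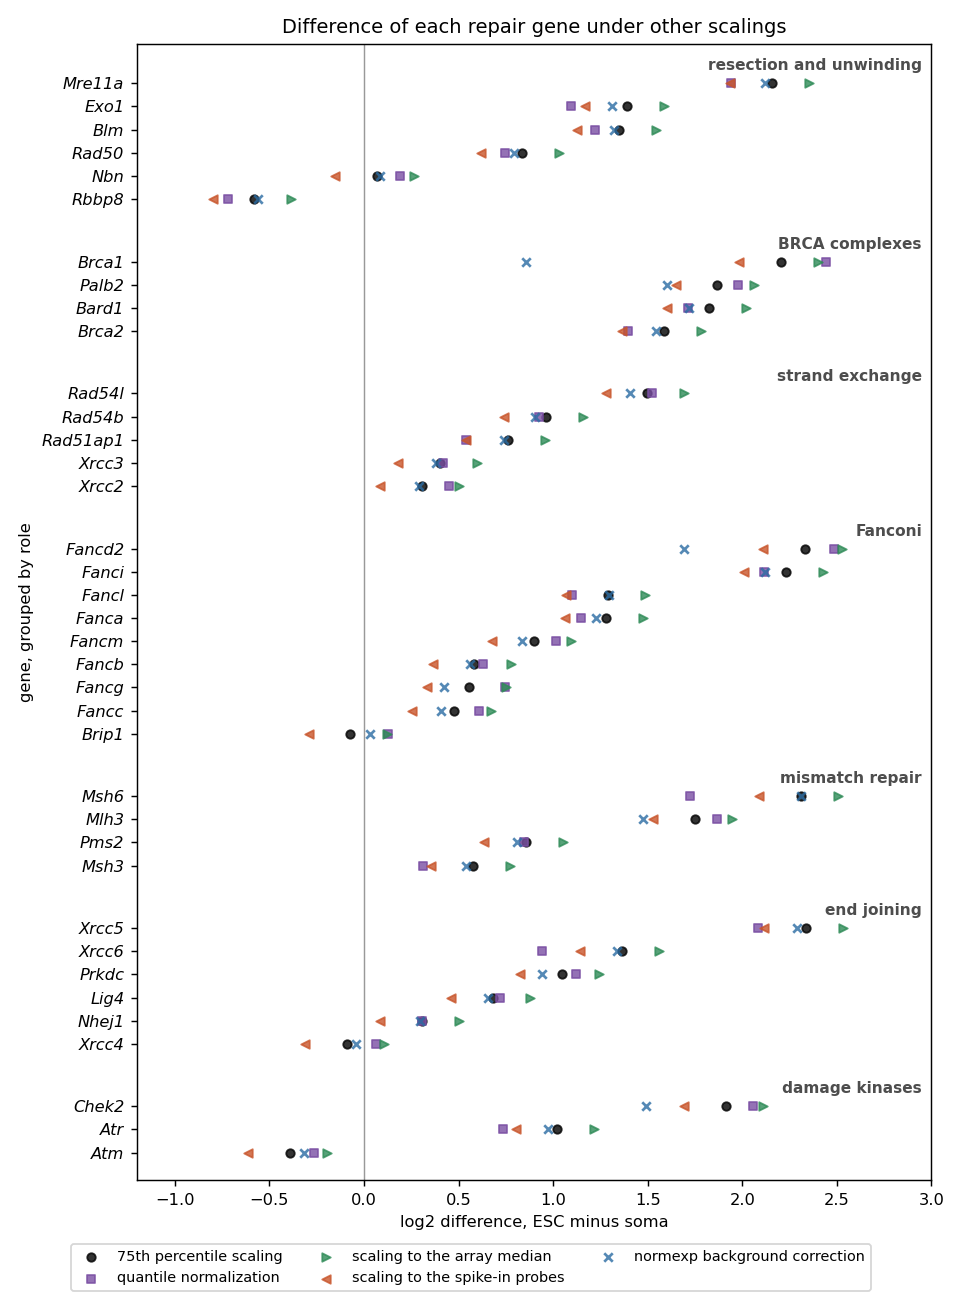
Log2 difference, ESC minus soma (horizontal axis), of the 37 tested repair genes under 75th percentile scaling and 4 alternatives, which are quantile normalization, scaling to the array median, scaling to the spike-in RNA and normexp background correction. Spike-in scaling moves every gene to the left by the same amount, and array median scaling moves every gene equally to the right. Brca1 falls from 2.20 to 0.86 under normexp.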

How the data were processed

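RNA of 3 soma and 3 ESC samples was measured on Agilent mouse one-colour arrays. Spot intensity, per the file headers, came from Feature Extraction 10.7.3.1, background-subtracted and detrended and not scaled between arrays. In the matrix that the authors deposited, values are on a log2 scale that is not stated, and they match, within 0.01 for at least 99.97% of probes, the log2 processed signal less the array's 75th percentile and each probe's median. Its column medians run from -0.25 to 0.161. The matrix was used as an alternative.

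Here log2 processed signals were scaled by the array's 75th percentile, spots of a probe averaged and outlier spots left out. Probes well above background on all arrays of at least 1 group were kept (24155 of 39429). A gene took its brightest kept probe, and RefSeq (GRCm38.p6) symbols matched 66.1% of probes. Groups were compared with limma 3.58.1 (R 4.3.3, two-sided), with Benjamini-Hochberg adjustment over 19675 genes at 0.05. Alternatives were other scalings, normexp, other filters and probe rules, the matrix values, a trended robust variance, slide, scan or replicate number as blocks, soma 3 alone, and each array left out. The labels call the samples biological replicates. Precision is limited by the number of arrays. The method was tested on simulated data with few genes changed, 50 at each size. It recovered 0% at a log2 size of 0.25, 26% at 0.5, 78% at 1.0 and 90% at 2.0, with 5 false calls. Far more genes were called on the real arrays, so these shares do not carry over to them.

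The members and lists were chosen with earlier results of these data known. All members are named. Values per array are given for the 3 smallest adjusted p in each role, for genes that were lower or changed call, and for Brca1, Chek1 and the second probes, added after their values were seen. From the further list the 4 largest differences each way are named. Fance, Fancf, Faap24, Faap100 and Dclre1c were added after their values were seen.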

Additional observations from a re-analysis of the deposited data

How the results depend on the processing

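Over 21 alternatives, 28 of 37 repair genes kept direction and call wherever they had a value; Brca1 had none with probes well above background on all 6 arrays. The 32 genes called higher became 29 under spike-in scaling, 30 with the dimmest kept probe, 31 with the mean of probes, and 31 of the 36 left when probes had to be well above background on all 6 arrays. They were 32 with each array left out. The count lower, 1, became 3 under spike-in scaling and 2 with the mean of the kept probes, the dimmest kept probe or a trended robust variance, and was 1 to 2 with an array left out (2 without ESC 1, where Atm joined). The 6 further repair genes called lower became 3 under scaling to the array median and against soma 3 alone (1 soma array, so the spread is that of the ESC arrays and the lost calls do not show dependence on the slide), 12 under spike-in scaling, and 5 to 6 with an array left out. Over all genes 8825 to 9254 were higher and 7232 to 7383 lower with an array left out. Under spike-in scaling 7707 of all genes were higher and 8514 lower.

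Signs turned for Fancc (-0.458 with the mean of probes, -1.39 with the dimmest probe) and for genes that had not passed. Atm stood at 0.209 with its dimmest probe. Nbn stood at -0.152 under spike-in scaling, -0.0564 with the slide as a block or on the shared slide, and -0.0031 to 0.136 with an array left out. Brip1 stood at 0.127 under quantile normalization, 0.124 under array median scaling, 0.0319 under normexp and 0.0585 with the slide as a block or on the shared slide. Xrcc4 stood at 0.0634 under quantile normalization and 0.106 under array median scaling. The cause was not tested, except that Fancc and Atm then rest on other probes.

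With the replicate number as a block, 32 repair genes were higher and 1 lower, and 9034 and 7447 of all genes. Deviations of same-numbered arrays correlated at -0.0470, 0.0674 and 0.0274 across genes. Soma 2 correlated best with ESC 2, and soma 1 and 3 with an ESC array of another number. Correlations this small cannot decide whether same-numbered samples were prepared together. For Brca1, signal over background limits the value.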
